A study of Homo sapiens with 12 samples.

Results

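HOS cells, a human osteosarcoma line, were transfected with siRNA against CIN85 (siCIN85) or with a non‐targeting siRNA (siNeg), and their 3′ RNA‐seq profiles were compared. CIN85 is encoded by SH3KBP1. Members of the comparison were 6 libraries, 3 per group, out of 12 in the series, chosen by the labels of the samples. All genes that passed edgeR's filterByExpr by group were described, 11806 of the 25141 listed. The siRNA was a commercial mix of 3 duplexes, whose sequences and time of harvest were not given in the sources used here. The other 6 libraries were HOS cells resistant to geneticin, pools with either a plasmid that expresses full‐length CIN85 (upCIN85) or its empty vector (Mock), and they enter only where stated. All results concern 1 cell line, and nothing in the labels says whether the 3 libraries of a group came from separate transfections, so P‐values measure the spread between these libraries, which may be technical.

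CIN85 is an adaptor protein with SH3 domains. It binds the ubiquitin ligase CBL and brings endophilins to activated receptor tyrosine kinases such as the EGF receptor, which are then internalised and sorted for degradation. Signals from these receptors run through the Ras‐ERK cascade, whose output includes its own inhibitors (DUSP phosphatases and Sprouty proteins) and AP‐1 transcription factors. In osteosarcoma, a tumour of cells of the osteoblast lineage, collagen and other matrix proteins are major products of the cells.

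Total counts ranged from 3540641 to 4174860 per library. Across genes, deviations from the group mean correlated between a siNeg library and the siCIN85 library of the same number (r = 0.372, 0.284 and 0.481). The replicate number was therefore a block in the test. Between libraries of unlike number the correlations were negative (r of −0.311 to −0.0504). Centring on a mean of 3 libraries favours such negative values, so they add no support for the block. The 2 libraries numbered 1 stood apart in interferon‐stimulated genes in both groups, as described with that list. Of 18 markers of osteoblast and mesenchymal cells, 14 were at 1 CPM or more in every library (CPM, counts scaled to library size with TMM factors), among them COL1A1, SPARC, VIM and RUNX2. The others, CDH11, DLX5 and the mature osteoblast markers ALPL and IBSP, reached at most 1.695 CPM in any library. SP7 and BGLAP were not among the listed genes. Of 16 markers of other cell types, 8 had at most 3 counts in every library. CD3E of T cells and DES of muscle were at 0, which allows up to 3 counts per library, whereas the epithelial genes EPCAM (24.4 to 36.2 CPM) and CDH1 (16.4 to 24.6 CPM) were measurable in all 6 libraries and neither was called between the groups. In bulk libraries, fewer cells of one kind and less RNA per cell cannot be told apart.

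The targeted gene, SH3KBP1 (chrX:19533975-19887601, minus strand, GRCh38), was counted 342, 357 and 317 times in siNeg 1 to 3 and 16, 31 and 37 times in siCIN85 1 to 3. After TMM normalization these were 84.9, 86.7 and 82.0 CPM in siNeg and 3.87, 8.90 and 9.71 CPM in siCIN85, which left 4.56, 10.3 and 11.8% of the paired control. The groups did not overlap, and the fitted log2FC, the log2 ratio of siCIN85 over siNeg, was −3.52 ± 0.17 (SE; adjusted P = 9.53e-12, edgeR's quasi‐likelihood test with Benjamini‐Hochberg adjustment over all 11806 genes). An exact two‐sided permutation test of 3 libraries against 3 gave P = 0.1, the smallest value that design allows. Knockdown was deepest in library 1 and held in every fit.

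The question of the comparison was which transcripts changed when CIN85 was depleted. At an adjusted P‐value below 0.05, 1248 genes were called, 10.6% of those tested, with 580 higher (4.91%) and 668 lower (5.66%) in siCIN85. An absolute log2FC above 0.59 left 537 genes, of which 261 were higher and 276 lower. Changes were mostly small, with a median absolute log2FC of 0.537 among called genes. The libraries of the 2 groups did not overlap in 881 of the 1248 called genes, and in 20.5% of all genes tested, and 1218 called genes had the same sign in all 3 pairs. Of the called genes, 1198 code for proteins.

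The size of this list depended on the fit. Without the block 50 genes were called, with all 12 libraries and the block 429, and with DESeq2 and the block 295, of which 294 were among the 1248. The edgeR fit with the block rests on 2 residual degrees of freedom and on moderation across genes. Leaving out single libraries from the main fit gave 698 to 1501 calls, with 719 without siNeg 1, 709 without siNeg 3, 720 without siCIN85 1 and 698 without siCIN85 3. A set of 48 genes, 28 higher and 20 lower, was called by all 4 fits (the main one and these 3), and 25 of the 145 called genes named by rule belong to it. When genes were ranked in 2 pairs and read in the third, which had no part in the ranking, the first 200 kept their sign in 99.0% (pair 1 left out), 94.5% (pair 2) and 95.0% (pair 3), against 68.6, 63.2 and 68.8% of all genes.

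**Figure D1:**
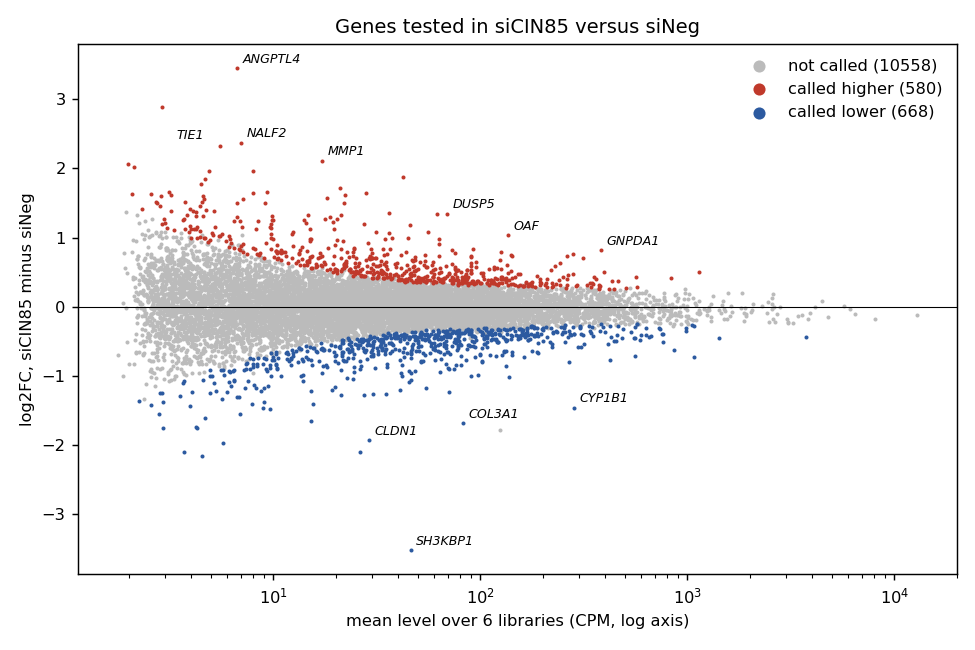
Fitted log2FC (siCIN85 minus siNeg) against the mean level over the 6 libraries in normalised counts (CPM, log axis) for the 11806 genes tested, with 580 called higher in red, 668 called lower in blue and the rest in grey. SH3KBP1 is the lowest point at −3.52 and ANGPTL4 the highest at 3.45, and called genes span the whole range of levels with smaller changes at high levels.

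Called genes also differed in base composition. Genes were sorted into 5 classes by the GC content of the last 500 bases of their transcripts. In the most AT‐rich class (median GC 30.2%), 93 were higher and 215 lower, and in the most GC‐rich class (57.6%) 155 were higher and 68 lower. Pair 1 carried most of the trend, its median log2 ratio moving from −0.115 to 0.113 between these classes. With the trend removed 1435 genes were called, 677 of them higher, and 1167 were shared with the list above. The part of GC content in single genes was not tested beyond that fit.

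ANGPTL4, a secreted inhibitor of lipoprotein lipase and a PPAR target, had the highest log2FC. Its level was 1.74, 0.485 and 1.03 CPM in siNeg and 11.6, 7.18 and 18.1 CPM in siCIN85 (libraries 1 to 3 in each group, as in all values that follow), so that every siCIN85 library was several times above every control (log2FC 3.45 ± 0.34, adjusted P = 9.65e-07). MMP1, interstitial collagenase, followed the same pattern at higher counts, with 10.4, 4.13 and 4.91 CPM in siNeg and 33.7, 19.5 and 30.4 CPM in siCIN85 (log2FC 2.11 ± 0.20, adjusted P = 6.13e-07). TIE1, an endothelial receptor tyrosine kinase, was at 0.993, 1.21 and 3.36 CPM in siNeg and 6.78, 8.04 and 12.9 CPM in siCIN85 (log2FC 2.32 ± 0.32, adjusted P = 4.9e-05). These 3 genes rose in all 3 pairs without overlap of the groups, although TIE1 missed the threshold without the block (adjusted P = 0.0533).

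The other genes among the 8 highest were, like ANGPTL4 and TIE1, at a few CPM or less in siNeg. NALF2, a partner of the sodium leak channel, was at 2.73, 2.18 and 1.81 CPM in siNeg and 16.5, 12.1 and 6.82 CPM in siCIN85 (log2FC 2.37 ± 0.28, adjusted P = 1.02e-05). SNCAIP, which encodes the synuclein partner synphilin, had 0 counts in siNeg 1 and was at 0, 0.243 and 1.81 CPM in siNeg and 6.05, 3.73 and 5.51 CPM in siCIN85 (log2FC 2.89 ± 0.53, adjusted P = 0.000962). RUBCNL (log2FC 2.06 ± 0.47), CHRNA9 (2.01 ± 0.46) and KRTAP4‐9 (1.96 ± 0.34) stayed under 10 CPM in every library, and KRTAP4‐9 belongs to a family of near‐identical keratin‐associated genes between which reads may be split. DESeq2 gave no adjusted P‐value for SNCAIP, RUBCNL and CHRNA9. Their counts were low enough that the size of each change is poorly fixed. ANGPTL4 (7, 2 and 4 counts in siNeg) and TIE1 (4, 5 and 13) were low in the controls too. With single libraries left out, the log2FC of ANGPTL4 spanned 3.06 to 3.99.

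Among genes of at least 100 CPM on average, the changes were smaller. OAF was at 97.1, 71.6 and 95.4 CPM in siNeg and 198, 126 and 224 CPM in siCIN85 (log2FC 1.03 ± 0.10, adjusted P = 9.65e-07). GNPDA1, a glucosamine‐6‐phosphate deaminase, was at 293, 279.8 and 256 CPM in siNeg and 513, 453 and 494 CPM in siCIN85 (log2FC 0.82 ± 0.08, adjusted P = 1.35e-06). Both rose in each pair by similar amounts, with log2 ratios of 1.03, 0.81 and 1.23 for OAF and 0.81, 0.69 and 0.95 for GNPDA1. The mitochondrial import factor TOMM34 (0.77 ± 0.10), the p53 target AEN (0.79 ± 0.11), the cyclin CCND1 (0.73 ± 0.08) and the mitochondrial transfer RNA MT‐TF (0.71 ± 0.09) completed the 6 highest. AEN and MT‐TF were not called without the block (adjusted P = 0.0675 and 0.08).

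COL3A1 fell by nearly the same ratio in every pair. This fibrillar collagen gene (chr2:188974320-189012746, plus strand) was at 127, 143 and 107 CPM in siNeg and 40.2, 43.7 and 33.1 CPM in siCIN85, and the log2 ratios of the 3 pairs were −1.65, −1.70 and −1.67 (log2FC −1.69 ± 0.11, adjusted P = 7.01e-10). CLDN1, a tight junction protein, was at 46.7, 56.1 and 34.1 CPM in siNeg and 5.33, 18.7 and 12.9 CPM in siCIN85 (log2FC −1.93 ± 0.20, adjusted P = 1.88e-06). Its fall was deepest in pair 1 (log2 ratios −3.015, −1.56 and −1.37), and a relation to the depth of the knockdown was not tested. CYP1B1, a cytochrome P450 that oxidises steroids and xenobiotics, was well counted, at 458, 355 and 422 CPM in siNeg and 119, 128 and 213 CPM in siCIN85 (log2FC −1.46 ± 0.12, adjusted P = 8.97e-08). No siCIN85 library reached the control range for any of the 3, and all 3 were called by each of the 4 fits.

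Lower levels were also measured for the matrix proteoglycan lumican, LUM, at 12.9, 8.98 and 17.6 CPM in siNeg and 5.81, 4.595 and 3.67 CPM in siCIN85 (log2FC −1.47 ± 0.26, adjusted P = 0.000643), which missed the threshold without the block (adjusted P = 0.0669) and with 12 libraries (0.22). The photomedin OLFML2A (−1.74 ± 0.34), the receptor phosphatase PTPRE (−1.60 ± 0.31), the GTPase‐activating protein ARHGAP28 (−1.55 ± 0.40) and the antisense transcript CCDC144NL‐AS1 (−1.75 ± 0.40) completed the 8 lowest at under 10 CPM in every library. All 4 missed the threshold without the block. Whether strand was used in counting was not given, so reads of that antisense transcript and of its partner gene cannot be told apart. At 100 CPM or more, LITAF, an endosomal membrane protein, was at 129.8, 141 and 118 CPM in siNeg and 61.5, 84.2 and 78.2 CPM in siCIN85 (log2FC −0.80 ± 0.11, adjusted P = 4.86e-05), and SDC4, a heparan sulfate proteoglycan of focal adhesions, was at 181, 175 and 156 CPM in siNeg and 71.4, 125 and 90.8 CPM in siCIN85 (log2FC −0.86 ± 0.12, adjusted P = 7.05e-05). The groups did not overlap for either gene.

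**Figure D2:**
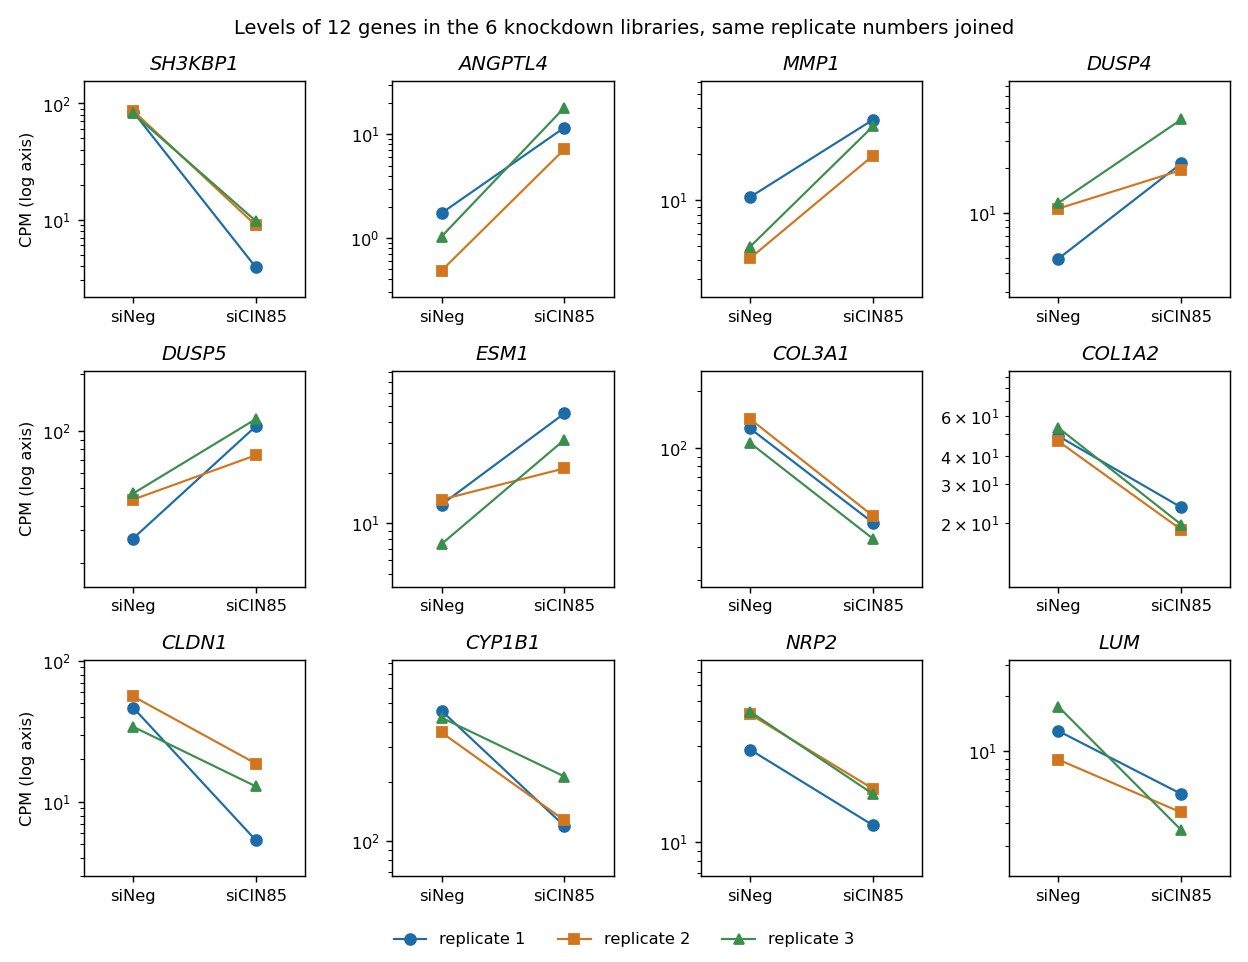
Level in CPM (log axis, its own range in each panel) of 12 genes in the 3 siNeg and 3 siCIN85 libraries, with lines joining libraries of the same replicate number. SH3KBP1 falls from 82.0 or more to 9.71 or less, the 5 panels from ANGPTL4 to ESM1 slope up and the 6 from COL3A1 to LUM slope down in all 3 pairs.

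ERK feedback genes, transcribed when the ERK cascade is active, were mostly higher. Of 20 tested, 11 were called higher and 1 lower (60.0%, against 10.6% of all genes), and their median log2FC was 0.59 against −0.0047 over all genes. The pair medians were 0.60, 0.51 and 0.68. The call count was 3 without the block, 8 with 12 libraries and 7 with DESeq2. The list was written with earlier results of these data known, so its direction is a description.

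The phosphatases of ERK and its relatives rose together. DUSP4 was at 4.96, 10.7 and 11.6 CPM in siNeg and 21.3, 19.2 and 41.7 CPM in siCIN85 (log2FC 1.58 ± 0.20, adjusted P = 2.24e-05), and DUSP5 at 27.1, 43.5 and 46.8 CPM in siNeg and 106, 74.7 and 116 CPM in siCIN85 (log2FC 1.34 ± 0.15, adjusted P = 3.26e-06). DUSP6, which acts on cytoplasmic ERK, was at 22.1, 25.2 and 27.7 CPM in siNeg and 55.9, 34.2 and 60.4 CPM in siCIN85 (log2FC 0.99 ± 0.15, adjusted P = 0.000115). In each the lowest siCIN85 library lay above the highest control, and pair 2 showed the smallest ratio for DUSP4 (log2 ratios 1.99, 0.82 and 1.798) and DUSP5 (1.95, 0.77 and 1.30). The ETS factor ETV4 was at 10.9, 10.7 and 10.6 CPM in siNeg and 29.1, 21.0 and 29.9 CPM in siCIN85 (log2FC 1.30 ± 0.17, adjusted P = 3.25e-05), and its relatives ETV1 (0.61 ± 0.19) and ETV5 (0.58 ± 0.13) were called higher as well. SPHK1, a sphingosine kinase, was at 10.9, 7.52 and 16.6 CPM in siNeg and 30.5, 19.0 and 31.8 CPM in siCIN85 (log2FC 1.23 ± 0.17, adjusted P = 5.84e-05), and the inhibitor SPRY2 rose by a log2FC of 0.72 ± 0.18. CCND1, cyclin D1, was at 202, 184 and 208 CPM in siNeg and 351, 299 and 336 CPM in siCIN85 (log2FC 0.73 ± 0.08, adjusted P = 6.86e-06), and PHLDA1 rose by 0.55 ± 0.12. IER3, an immediate early gene, went the other way at 466, 830.3 and 777 CPM in siNeg and 397, 437 and 636 CPM in siCIN85 (log2FC −0.48 ± 0.10, adjusted P = 0.00369), with overlapping groups and no call by DESeq2 (adjusted P = 0.304).

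AP‐1 and immediate early genes were less uniform, with 6 higher and 2 lower of 20 tested (40.0%, against 10.6% of all genes) and a median log2FC of 0.29. The AP‐1 subunit FOSL1 was at 15.4, 20.9 and 34.4 CPM in siNeg and 50.6, 32.2 and 55.4 CPM in siCIN85 (log2FC 0.99 ± 0.16, adjusted P = 0.000395), with siNeg 3 above siCIN85 2. MAFF, a small Maf factor, was at 17.1, 22.1 and 20.7 CPM in siNeg and 54.7, 34.5 and 38.6 CPM in siCIN85 (log2FC 1.08 ± 0.16, adjusted P = 0.000129), and CSRNP1 was at 47.4, 51.5 and 59.7 CPM in siNeg and 103, 79.3 and 97.4 CPM in siCIN85 (log2FC 0.82 ± 0.11, adjusted P = 4.9e-05). The groups were apart for both. KLF4, a zinc finger factor, was at 3.48, 1.21 and 2.33 CPM in siNeg and 8.47, 4.88 and 7.35 CPM in siCIN85 (log2FC 1.55 ± 0.31, adjusted P = 0.00242), with no adjusted P‐value from DESeq2, and KLF10 (0.65 ± 0.11) and IER2 (0.44 ± 0.10) were called higher. JUND was lower, with a log2FC of −0.42 ± 0.11 and overlapping groups, and was not called by DESeq2 (adjusted P = 0.221). Without the block 2 members were called and with DESeq2 4.

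Promoters were scanned for the letters of several factors, AP‐1 among them, to describe what the called genes share. Windows of 250 bases before the first listed start of each gene were taken from the RefSeq promoter table (GRCh38.p14), which held 9321 of the tested genes. The AP‐1 letters TGANTCA, read on both strands, were in 6.44% of 435 promoters of genes called higher, 2.63% of 532 of genes called lower and 3.56% of all tested. The E‐box CACGTG was in 13.3, 6.77 and 9.08%, the SP1 letters GGGGCGGGG in 32.0, 28.0 and 27.6%, GGAATG of TEAD factors in 9.43, 10.7 and 9.26%, TGACGTCA of CREB in 3.91, 3.01 and 3.15%, and TTCCNGGAA of STAT factors in 0.69, 0.564 and 0.976% of the same groups. The CArG box of SRF, added after the values were seen, was in 1.61, 2.26 and 1.07%. Genes called higher were also richer in GC, and the part of base composition in these shares was not tested. Stretches around the matches are shown for IL11 and F3, secreted and cell‐surface products that rose in siCIN85, with the AP‐1 letters in capitals, on the strand of the gene (minus for both) and ending before the transcription start, at chr19:55370503-55370609 and chr1:94541913-94542009.
IL11: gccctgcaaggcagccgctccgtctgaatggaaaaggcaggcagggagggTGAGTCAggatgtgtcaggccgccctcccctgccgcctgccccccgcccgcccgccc
F3: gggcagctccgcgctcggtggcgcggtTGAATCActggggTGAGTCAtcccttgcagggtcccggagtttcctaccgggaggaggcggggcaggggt
IL11, a cytokine of the IL‐6 family, was at 48.9, 31.3 and 51.7 CPM in siNeg and 93.2, 61.5 and 92.9 CPM in siCIN85 (log2FC 0.91 ± 0.11, adjusted P = 7.05e-06), with log2 ratios of 0.92, 0.96 and 0.84. F3, tissue factor, was at 48.4, 40.1 and 54.3 CPM in siNeg and 88.1, 73.2 and 74.3 CPM in siCIN85 (log2FC 0.73 ± 0.11, adjusted P = 0.000188). Both rose without overlap of the groups. A match in these windows is a description of letters, not of binding.

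Fibrillar collagen genes were mostly lower. Of 8 tested, 5 were called lower and 1 higher, against 10.6% of all genes called in either direction. The log2FC was negative in 7 of the 8. The median log2FC was −0.82, with pair medians of −0.60, −0.75 and −1.13. COL1A1 and COL1A2 encode the chains of type I collagen. COL1A2 was at 48.9, 46.4 and 53.3 CPM in siNeg and 23.5, 18.7 and 19.7 CPM in siCIN85 (log2FC −1.26 ± 0.13, adjusted P = 1.88e-06), and COL1A1 at 669, 763 and 651 CPM in siNeg and 480.3, 463 and 335 CPM in siCIN85 (log2FC −0.72 ± 0.09, adjusted P = 1.54e-05). The type V chains COL5A2 at 208, 199 and 137 CPM in siNeg and 115, 116 and 49.3 CPM in siCIN85 (log2FC −1.01 ± 0.12, adjusted P = 5.82e-06) and COL5A1 at 74.7, 55.6 and 47.3 CPM in siNeg and 45.0, 30.7 and 18.9 CPM in siCIN85 (log2FC −0.93 ± 0.13, adjusted P = 4.52e-05) fell with them, both deepest in pair 3. All these groups were free of overlap. COL27A1, a minor fibrillar collagen, was the member called higher, at 40.0, 34.5 and 53.5 CPM in siNeg and 57.4, 41.4 and 65.1 CPM in siCIN85 (log2FC 0.36 ± 0.11, adjusted P = 0.0459), with overlapping groups. DESeq2 called 5 members, the fit with 12 libraries 4, and the fit without the block 2, COL3A1 and COL1A2. The summed level of the list was 1202, 1280 and 1074 CPM in siNeg and 798, 741 and 539 CPM in siCIN85.

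Enzymes that modify and cross‐link collagen were lower too, by less. Of 23 tested, 8 were lower and 1 higher (39.1%, against 10.6% of all genes), and the median log2FC was −0.19. LOXL1, a lysyl oxidase, was at 231, 218 and 248 CPM in siNeg and 124, 146 and 170.3 CPM in siCIN85 (log2FC −0.67 ± 0.10, adjusted P = 7.16e-05). PCOLCE, which enhances removal of the collagen propeptide, was at 83.7, 61.7 and 48.4 CPM in siNeg and 51.3, 44.5 and 27.0 CPM in siCIN85 (log2FC −0.66 ± 0.11, adjusted P = 0.000557). LOXL1 was separate between the groups and PCOLCE was not. The lysyl hydroxylases PLOD1 (−0.51 ± 0.15) and PLOD2 (−0.47 ± 0.10), the prolyl hydroxylase subunits P4HA1 (−0.42 ± 0.11) and P4HA2 (−0.45 ± 0.13), LOX (−0.39 ± 0.12) and LOXL2 (−0.40 ± 0.08) were called lower, and PLOD3 (0.40 ± 0.12) higher. DESeq2 called 3 of the 9 and the fit without the block 1.

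Basement membrane components and non‐fibrillar collagens had 8 of 23 members lower (34.8%, against 10.6% of all genes called), none higher, and a median log2FC of −0.23. COL16A1, a collagen associated with fibrils, was at 15.1, 25.5 and 16.3 CPM in siNeg and 7.504, 10.6 and 8.66 CPM in siCIN85 (log2FC −1.07 ± 0.19, adjusted P = 0.000643). COL8A1 (−0.58 ± 0.10), COL18A1 (−0.42 ± 0.09), COL12A1 (−0.37 ± 0.11) and the laminin chains LAMB2 (−0.62 ± 0.20), LAMC1 (−0.41 ± 0.10), LAMA5 (−0.38 ± 0.12) and LAMB1 (−0.32 ± 0.10) were the others. No member was called without the block or with 12 libraries, DESeq2 called 3, and 2 remained in number without pair 3.

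Proteoglycans and other matrix proteins had 11 members lower and 3 higher of 29 tested (48.3%, against 10.6% of all genes), and the median was −0.32. Fibrillin FBN1 was at 71.5, 74.8 and 53.3 CPM in siNeg and 35.1, 55.4 and 33.3 CPM in siCIN85 (log2FC −0.70 ± 0.12, adjusted P = 0.000557), and the laminin receptor DAG1 at 41.7, 42.7 and 43.7 CPM in siNeg and 26.1, 29.3 and 24.4 CPM in siCIN85 (log2FC −0.68 ± 0.13, adjusted P = 0.00121). Fibronectin FN1 was at 721, 708 and 504 CPM in siNeg and 513, 532 and 369 CPM in siCIN85 (log2FC −0.45 ± 0.08, adjusted P = 0.000592), and SPARC at 773, 678 and 465 CPM in siNeg and 538, 499 and 351 CPM in siCIN85 (log2FC −0.46 ± 0.08, adjusted P = 0.000557). In FN1 and SPARC the controls spanned a wide range, so that groups overlapped although each pair fell by a similar ratio (−0.49, −0.41 and −0.45 for FN1). Versican VCAN (log2FC 0.71 ± 0.16, adjusted P = 0.00581), the bone protein osteopontin SPP1 (log2FC 1.16 ± 0.32, adjusted P = 0.023) and biglycan BGN (log2FC 0.42 ± 0.13, adjusted P = 0.0459) rose, with overlapping groups in all 3 and no call by any of the 3 other fits for VCAN and BGN. DESeq2 called 8 members, and no member was called without the block.

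Matrix metalloproteinases and their inhibitors showed no common direction. Of 10 tested, 2 were called, MMP1 and TIMP3, both higher, against 10.6% of all genes called. The median was 0.06. TIMP3, an inhibitor bound to the matrix, was at 34.3, 71.1 and 184 CPM in siNeg and 70.9, 94.8 and 243 CPM in siCIN85 (log2FC 0.58 ± 0.12, adjusted P = 0.00242), and its controls ranged so widely that the groups overlapped. MMP2, gelatinase A, was at 9.93, 3.88 and 6.98 CPM in siNeg and 4.599, 2.87 and 6.56 CPM in siCIN85 (log2FC −0.57 ± 0.28, adjusted P = 0.21) and was not called.

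**Figure D3:**
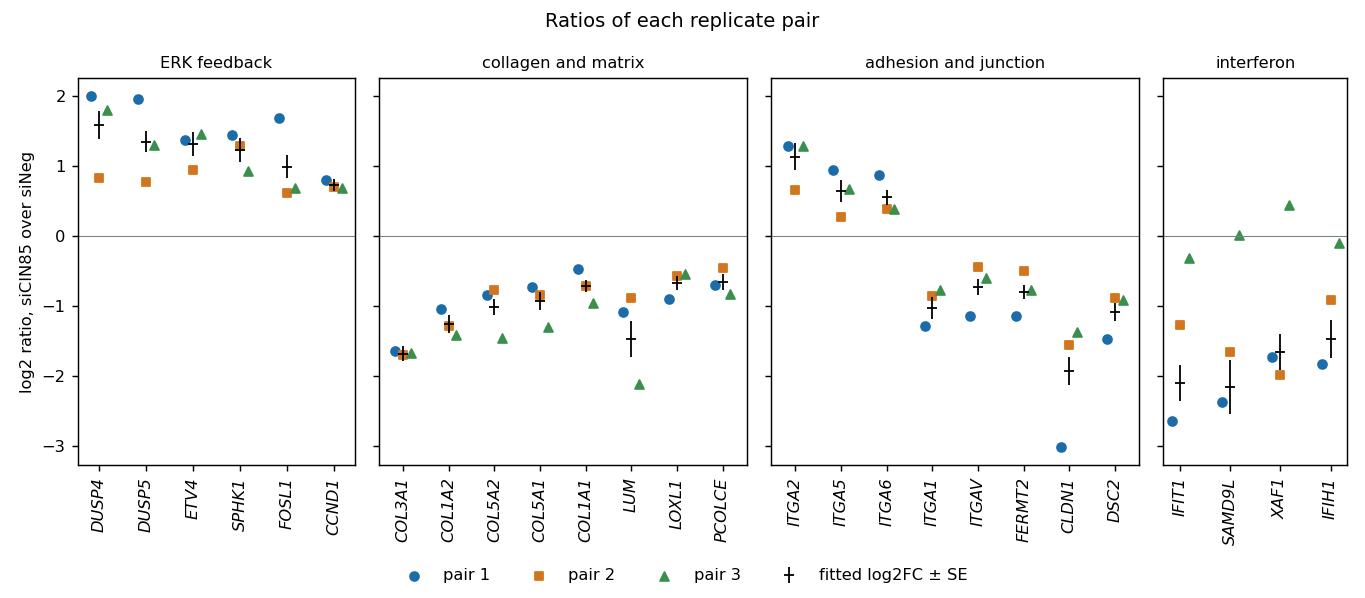
Log2 ratio of siCIN85 over siNeg in each of the 3 replicate pairs (symbols) and fitted log2FC with its SE (black) for 26 genes in 4 groups. All pairs lie above 0 for the ERK feedback genes and below 0 for the collagen and matrix genes, integrin genes split by member, and the interferon‐stimulated genes are lowest in pair 1 or 2 and near or above 0 in pair 3.

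Integrin and focal adhesion genes changed in both directions. Of 32 tested, 5 were higher and 4 lower (28.1%, against 10.6% of all genes), and the median log2FC was −0.05. The collagen receptor subunits moved apart. ITGA1 was at 43.7, 30.6 and 17.8 CPM in siNeg and 17.7, 16.7 and 10.2 CPM in siCIN85 (log2FC −1.03 ± 0.16, adjusted P = 0.000185), and ITGA2 was at 6.95, 9.47 and 11.6 CPM in siNeg and 17.7, 15.2 and 28.9 CPM in siCIN85 (log2FC 1.13 ± 0.19, adjusted P = 0.000468), with no overlap in either gene. ITGAV, the subunit of vitronectin receptors, was at 203, 199.5 and 199 CPM in siNeg and 91.5, 147 and 131 CPM in siCIN85 (log2FC −0.73 ± 0.11, adjusted P = 0.000183), and the fibronectin receptor subunit ITGA5 at 13.9, 19.9 and 18.6 CPM in siNeg and 27.1, 24.1 and 29.9 CPM in siCIN85 (log2FC 0.64 ± 0.16, adjusted P = 0.0129). Laminin receptor subunits ITGA6 (0.55 ± 0.11) and ITGA3 (0.41 ± 0.11) and the adaptor PXN (0.52 ± 0.10) were higher. FERMT2, kindlin‐2, which activates integrins, was at 352, 377 and 287 CPM in siNeg and 159, 267 and 169 CPM in siCIN85 (log2FC −0.80 ± 0.10, adjusted P = 2.02e-05). None of the 9 was called without the block, 6 were called in number with 12 libraries and 5 with DESeq2. ITGA5 was not called by DESeq2 (adjusted P = 0.277).

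Among 28 cell junction genes, 3 were lower and 1 higher, with a median of −0.02. The share called, 14.3%, was near the 10.6% of all genes, 1 member was called without the block and 2 with DESeq2. With CLDN1, the desmosomal cadherins DSC2 at 51.9, 84.0 and 46.6 CPM in siNeg and 18.4, 45.1 and 24.4 CPM in siCIN85 (log2FC −1.08 ± 0.13, adjusted P = 1.03e-05) and DSG2 at 88.6, 80.3 and 67.2 CPM in siNeg and 49.1, 60.3 and 54.3 CPM in siCIN85 (log2FC −0.53 ± 0.11, adjusted P = 0.0043) fell. The siCIN85 2 library lay just under the lowest control for DSC2. NECTIN1, an adhesion receptor, was the member called higher, at 12.7, 15.8 and 10.3 CPM in siNeg and 19.6, 19.8 and 18.4 CPM in siCIN85 (log2FC 0.58 ± 0.18, adjusted P = 0.0361). DESeq2 did not call DSG2 (adjusted P = 0.0772) or NECTIN1 (adjusted P = 0.454).

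Targets of SRF and YAP, factors that respond to actin dynamics and cell tension, had 6 members lower and 1 (F3) higher of 26 (26.9%, against 10.6% of all genes), with a median log2FC of −0.19. ACTA2, smooth muscle actin, was at 14.6, 8.98 and 5.69 CPM in siNeg and 6.54, 3.16 and 2.10 CPM in siCIN85 (log2FC −1.31 ± 0.26, adjusted P = 0.00205). Each pair fell by a similar ratio, −1.11, −1.37 and −1.25, while the groups overlapped, and DESeq2 did not call it (adjusted P = 0.111). The myosin light chain MYL9 was at 416, 411 and 282 CPM in siNeg and 248, 293 and 197 CPM in siCIN85 (log2FC −0.58 ± 0.09, adjusted P = 0.000101), and the secreted protein CCN1 (−0.42 ± 0.08), the tropomyosins TPM4 (−0.41 ± 0.09) and TPM1 (−0.41 ± 0.08) and AJUBA (−0.37 ± 0.12) were lower. No member was called without the block. Targets of TGF‐beta and BMP had 6 of 23 lower (26.1%, against 10.6% of all genes) and none higher, with a median of −0.21. The BMP targets ATOH8 at 34.0, 35.2 and 13.5 CPM in siNeg and 9.44, 17.5 and 9.71 CPM in siCIN85 (log2FC −1.16 ± 0.20, adjusted P = 0.000492) and SMAD6 at 34.8, 29.9 and 12.7 CPM in siNeg and 10.4, 27.9 and 7.35 CPM in siCIN85 (log2FC −0.82 ± 0.22, adjusted P = 0.0188) were among them, SMAD6 with little change in pair 2 (log2 ratios −1.69, −0.10 and −0.75). The ligand TGFB2 was at 5.96, 11.4 and 4.91 CPM in siNeg and 3.87, 4.595 and 1.05 CPM in siCIN85 (log2FC −1.21 ± 0.31, adjusted P = 0.0141), and TGFBI (−0.32 ± 0.10) and ID3 (−0.30 ± 0.10) were slightly lower. With pair 1 left out, 3 members of this list were called. None was called without the block, and 2 were called with 12 libraries and 2 with DESeq2. SMAD6, with overlapping groups, and TGFB2 were not called by DESeq2 (adjusted P = 0.171 and 0.266).

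Angiogenic and endothelial‐type genes had 8 members higher and 3 lower of 26 (42.3%, against 10.6% of all genes) and a median of 0.24. ESM1, endocan, was at 12.9, 13.8 and 7.499 CPM in siNeg and 45.3, 21.3 and 31.5 CPM in siCIN85 (log2FC 1.497 ± 0.20, adjusted P = 4.23e-05), and ROBO4 at 0.745, 1.46 and 3.88 CPM in siNeg and 7.504, 3.16 and 9.97 CPM in siCIN85 (log2FC 1.77 ± 0.36, adjusted P = 0.0026), with overlap in ROBO4 only. The ETS factors ETS1 at 92.8, 94.4 and 102 CPM in siNeg and 150.3, 145 and 134 CPM in siCIN85 (log2FC 0.57 ± 0.10, adjusted P = 0.000763) and FLI1 (0.45 ± 0.12), the ligands APLN (0.74 ± 0.19) and EFNB2 (0.597 ± 0.13), and ANGPTL4 and TIE1 described above made up the rest. NRP2, a neuropilin that binds VEGF and semaphorins, was lower at 28.8, 43.2 and 44.5 CPM in siNeg and 12.1, 18.4 and 17.3 CPM in siCIN85, with log2 ratios of −1.22, −1.21 and −1.34 (log2FC −1.28 ± 0.14, adjusted P = 4.55e-06). The PDGF receptor PDGFRB was at 49.9, 49.0 and 38.5 CPM in siNeg and 22.3, 32.7 and 21.0 CPM in siCIN85 (log2FC −0.87 ± 0.14, adjusted P = 0.000198), and EFNA1 at 71.5, 89.1 and 60.0 CPM in siNeg and 47.0, 58.9 and 37.8 CPM in siCIN85 (log2FC −0.62 ± 0.11, adjusted P = 0.00051). The groups did not overlap in any of these 3. VEGFB, at 24.6, 23.3 and 22.8 CPM in siNeg and 32.2, 23.6 and 28.6 CPM in siCIN85 (log2FC 0.25 ± 0.14, adjusted P = 0.277), was not called, and the endothelial markers PECAM1, VWF and CDH5 had levels of at most 4.40 CPM. PPAR target genes, with 4 of 14 higher (28.6%, against 10.6% of all genes called), none lower and a median of 0.15, had ANGPTL4 as their largest change, then the lipid droplet protein PLIN2 at 170.0, 191 and 209 CPM in siNeg and 296, 280.3 and 303 CPM in siCIN85 (log2FC 0.63 ± 0.09, adjusted P = 7.05e-05), and the fatty acid oxidation genes ACADVL (0.34 ± 0.10) and CPT1A (0.29 ± 0.09). Neither ACADVL nor CPT1A was called without the block, with 12 libraries or with DESeq2.

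Partners of CIN85 in endocytosis changed in both directions. Of 38 tested, 5 rose and 3 fell (21.1%, against 10.6% of all genes), and the median log2FC was 0.11. No member was called without the block, and DESeq2 called PDGFRB alone (adjusted P = 0.00674), the receptor described above, whose log2FC of −0.87 was the largest in size among the 8. CD2AP, the closest relative of CIN85, was at 118, 115 and 128 CPM in siNeg and 66.1, 97.6 and 101 CPM in siCIN85, lower in each pair (log2FC −0.46 ± 0.11, adjusted P = 0.0107) and not called by DESeq2 (adjusted P = 0.0798). CBL, the ubiquitin ligase that binds CIN85, was at 148, 153 and 130.3 CPM in siNeg and 183, 181 and 169 CPM in siCIN85 (log2FC 0.31 ± 0.09, adjusted P = 0.0354). The clathrin light chain CLTB at 59.8, 64.3 and 65.4 CPM in siNeg and 101, 93.9 and 80.0 CPM in siCIN85 (log2FC 0.53 ± 0.11, adjusted P = 0.00254) and the endophilin SH3GL1 (0.43 ± 0.11), the epsin EPN2 (0.48 ± 0.13) and the adaptor subunit AP2S1 (0.32 ± 0.09) were higher, and amphiphysin AMPH (−0.41 ± 0.11) lower. Genes of the PI3K‐Akt‐mTOR pathway had 2 of 37 higher and 3 lower, with a median of 0.03, and the share called, 13.5%, was near the 10.6% of all genes. The Rag GTPases, which recruit mTORC1 to lysosomes, had RRAGD higher at 14.2, 16.5 and 18.9 CPM in siNeg and 42.1, 27.0 and 45.7 CPM in siCIN85 (log2FC 1.201 ± 0.16, adjusted P = 3.29e-05) and RRAGA lower at 122, 142 and 117 CPM in siNeg and 87.4, 100.2 and 80.3 CPM in siCIN85 (log2FC −0.51 ± 0.10, adjusted P = 0.00182). DDIT4, an mTORC1 inhibitor, was at 30.8, 25.5 and 25.9 CPM in siNeg and 12.4, 16.1 and 20.2 CPM in siCIN85 (log2FC −0.77 ± 0.17, adjusted P = 0.00585), IRS2 was higher (0.36 ± 0.10) and IGF1R lower (−0.34 ± 0.11). Of the 5, DESeq2 called 2 and the fit without the block 1, and DDIT4 (adjusted P = 0.134), IRS2 (0.22) and IGF1R (0.31) were not called by DESeq2.

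Interferon‐stimulated genes and RNA sensors, which respond to type I interferon and double‐stranded RNA, had 17 of 34 members called lower and none higher. Of all genes, 10.6% were called and 5.66% were called lower. The median log2FC of the list was −0.68. The pairs did not share this direction, since their medians were −0.99, −0.38 and 0.06. Summed over the list, the level was 3792, 1364 and 1125 CPM in siNeg and 2265, 1175 and 1136 CPM in siCIN85. Both libraries numbered 1 were therefore above all others, and the difference between groups was largest between these 2. Without pair 1 the count of calls was 5, and it was 19 without pair 2, 22 without pair 3, 4 with DESeq2 and 0 without the block.

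IFIT1, an RNA‐binding antiviral protein, was at 113, 11.9 and 5.69 CPM in siNeg and 17.7, 4.595 and 4.46 CPM in siCIN85 (log2FC −2.10 ± 0.25, adjusted P = 1.15e-05), and siCIN85 1 exceeded siNeg 2 and 3. The RNA sensor IFIH1 was at 35.0, 5.34 and 2.85 CPM in siNeg and 9.44, 2.59 and 2.62 CPM in siCIN85 (log2FC −1.47 ± 0.27, adjusted P = 0.00114). XAF1 was at 66.0, 2.67 and 1.03 CPM in siNeg and 19.6, 0.287 and 1.57 CPM in siCIN85 (log2FC −1.65 ± 0.26, adjusted P = 0.000188), with a higher level in siCIN85 than in siNeg in pair 3. SAMD9L was at 18.4, 2.91 and 1.03 CPM in siNeg and 3.15, 0.574 and 1.05 CPM in siCIN85 (log2FC −2.16 ± 0.39, adjusted P = 0.000855), and its pair 3 ratio was close to 0. None of these 4 was called by DESeq2, which gave no value for SAMD9L. The interferon‐stimulated response element, searched as 2 copies of GAAA with 2 bases between them on both strands and chosen after the values were seen, was in 10 of the 15 promoters held for the 17 called genes (66.7%), among them those of IFIT1, IFIT3, ISG15, OAS3 and IFIH1, against 2.24% of all tested genes. The stretches of IFIT1 (plus strand, chr10:89392457-89392579) and IFIH1 (minus strand, chr2:162318685-162318893) are shown because they carry more than 1 match, in capitals.
IFIT1: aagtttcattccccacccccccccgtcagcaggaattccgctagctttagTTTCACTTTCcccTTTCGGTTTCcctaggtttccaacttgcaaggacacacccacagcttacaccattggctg
IFIH1: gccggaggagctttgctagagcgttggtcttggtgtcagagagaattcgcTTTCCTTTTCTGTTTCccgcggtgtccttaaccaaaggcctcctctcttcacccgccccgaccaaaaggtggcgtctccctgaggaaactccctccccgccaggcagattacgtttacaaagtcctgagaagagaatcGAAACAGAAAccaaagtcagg
The shared element is a property of the genes in the list, and says nothing of which library was activated or why.

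NF‐kB target genes had 7 members lower and 1 higher of 29 (27.6%, against 10.6% of all genes), with a median log2FC of −0.29 and pair medians of −0.31, −0.17 and −0.15. NFKBIA, the inhibitor that NF‐kB itself induces, was at 279.5, 342 and 289.6 CPM in siNeg and 197, 266 and 209 CPM in siCIN85, with log2 ratios of −0.50, −0.36 and −0.47 (log2FC −0.44 ± 0.08, adjusted P = 0.00141). The kinase MAP3K8 was at 16.6, 8.74 and 9.05 CPM in siNeg and 4.36, 4.31 and 4.20 CPM in siCIN85 (log2FC −1.41 ± 0.26, adjusted P = 0.000961), and the chemokine CCL2 at 14.4, 16.3 and 6.72 CPM in siNeg and 4.84, 8.33 and 3.41 CPM in siCIN85 (log2FC −1.18 ± 0.23, adjusted P = 0.00205). IL11, shown above, was the member that rose. The chemokines CXCL8 (−0.41 ± 0.11) and CXCL1 (−0.39 ± 0.11) and TNFAIP2 (−0.39 ± 0.11) were called lower. DESeq2 called 2 of the 8, and no member was called without the block.

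Of 16 CDK inhibitors, D cyclins and related genes, 3 were higher and 3 lower (37.5%, against 10.6% of all genes, median 0.12). Of these 6, DESeq2 called 2 and the fit without the block 1. CDKN1A, the CDK inhibitor p21, was at 9.43, 7.77 and 19.4 CPM in siNeg and 30.0, 16.4 and 44.6 CPM in siCIN85, and rose in each pair (1.62, 1.03 and 1.18) while the groups overlapped (log2FC 1.32 ± 0.17, adjusted P = 2.02e-05). CCND3 (0.44 ± 0.10) and CCND1 were higher, and the inhibitors CDKN2C at 31.0, 30.6 and 23.8 CPM in siNeg and 16.2, 21.3 and 17.6 CPM in siCIN85 (log2FC −0.64 ± 0.15, adjusted P = 0.00954) and CDKN1B (−0.46 ± 0.11) and the pocket protein RBL1 (−0.68 ± 0.15) lower. DESeq2 did not call CCND3 (adjusted P = 0.125), CDKN2C (0.232), CDKN1B (0.202) or RBL1 (0.175). Of 40 S‐phase and G1/S genes, 4 were lower (10%, near the 10.6% of all genes) and none higher (median −0.12), including DUT at 402, 386 and 343 CPM in siNeg and 237, 283 and 260.0 CPM in siCIN85 (log2FC −0.54 ± 0.09, adjusted P = 0.000376), GMNN (−0.58 ± 0.11) and the replicative helicase subunit MCM6 (−0.43 ± 0.11). Of 38 mitosis genes, 8 were lower (21.1%, against 10.6% of all genes) and none higher. Their median log2FC was −0.14, with pair medians of −0.25, −0.02 and −0.08. ANLN, which acts in cytokinesis, was at 211, 183 and 259 CPM in siNeg and 119, 138 and 160.1 CPM in siCIN85 (log2FC −0.64 ± 0.10, adjusted P = 0.000153), and CCNB1 (−0.40 ± 0.09), CDC25B (−0.39 ± 0.09) and NUF2 (−0.41 ± 0.11) fell by less. The mitosis calls numbered 2 without pair 1, 4 without pair 3, 4 with DESeq2 and 0 without the block, and the S‐phase calls 2 with DESeq2 and 0 without the block.

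Replication‐dependent histone genes, whose main transcripts lack a poly(A) tail and are poorly read by an oligo(dT) kit, had 5 of 18 higher and 1 lower (33.3%, against 10.6% of all genes), and their median log2FC was 0.53. The pair medians were 0.32, 0.18 and 0.37, and the median was 0.204 to 0.258 when siNeg 2, siNeg 3, siCIN85 2 or siCIN85 3 was left out. DESeq2 called 2 members and the fit without the block 1. Only 18 of 61 listed genes passed the filter. H2AC6 was at 12.4, 12.1 and 11.1 CPM in siNeg and 26.9, 30.7 and 28.6 CPM in siCIN85 (log2FC 1.27 ± 0.16, adjusted P = 2.02e-05), H2BC5 at 4.22, 3.64 and 4.40 CPM in siNeg and 9.93, 6.03 and 13.4 CPM in siCIN85 (log2FC 1.24 ± 0.26, adjusted P = 0.00369), and H2BC21 (1.15 ± 0.29) and H4C8 (0.96 ± 0.27) were called higher. DESeq2 did not call H2BC5 (adjusted P = 0.195), H2BC21 (0.279) or H4C8 (0.431). H4C3 was lower at 588, 722 and 949 CPM in siNeg and 434, 595 and 635 CPM in siCIN85 (log2FC −0.43 ± 0.08, adjusted P = 0.00137), with overlapping groups. These genes are near copies of each other, and reads may be split between them.

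**Figure D4:**
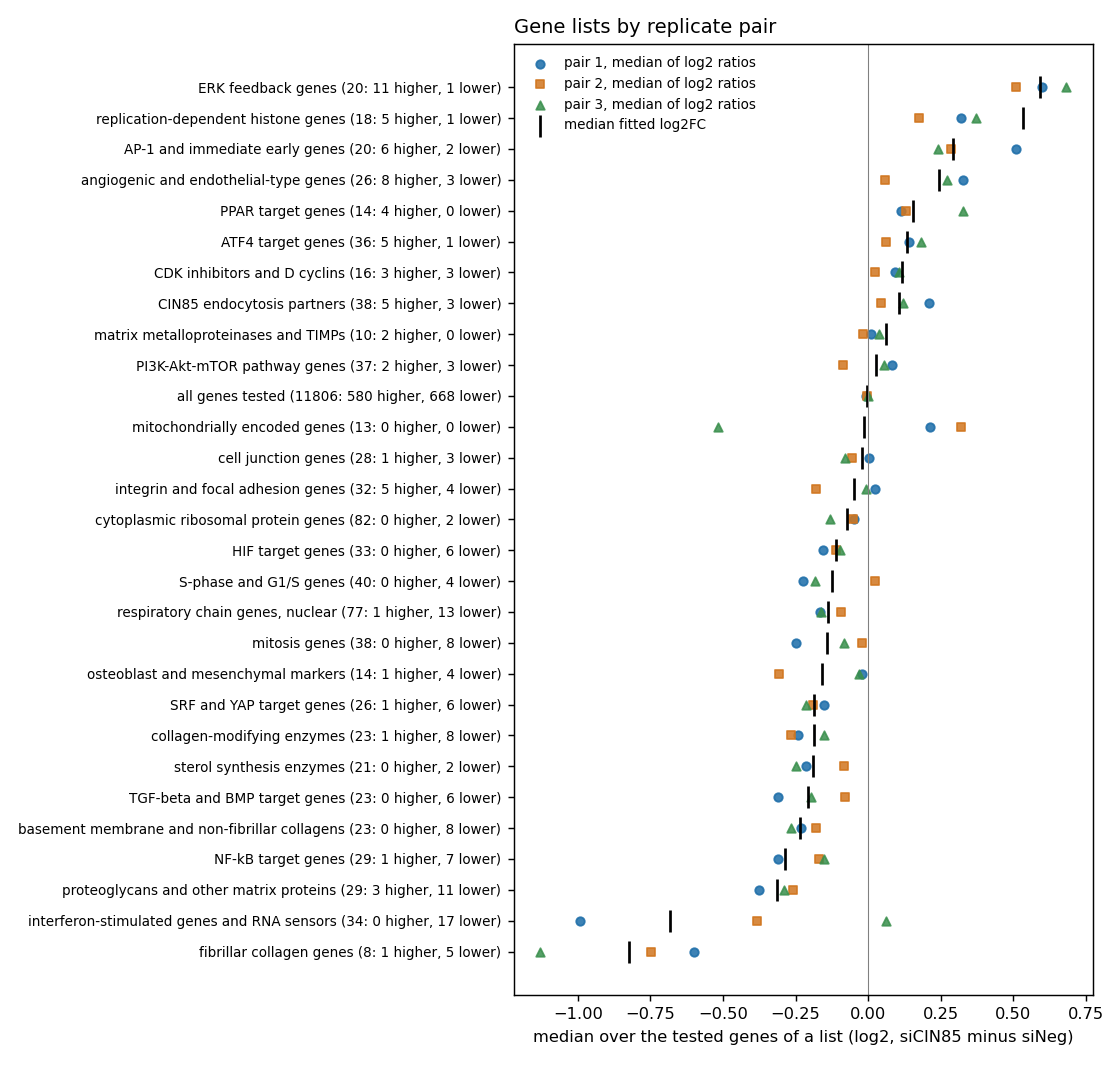
Median log2 difference (siCIN85 minus siNeg) over the tested genes of each list, shown per replicate pair (symbols) and for the fitted log2FC (black bar), with the number tested and called beside each name. ERK feedback genes lie right of 0 and fibrillar collagen genes left of 0 in every pair, whereas the interferon list spans −0.99 to 0.06 and the mitochondrially encoded genes −0.52 to 0.32.

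Lists of metabolism and protein synthesis had small medians, −0.19 for sterol synthesis, −0.11 for HIF targets, 0.13 for ATF4 targets, −0.07 for ribosomal proteins and −0.02 for mitochondrially encoded genes. Nuclear genes of the respiratory chain had 13 of 77 lower and 1 higher (18.2%, against 10.6% of all genes), with a median of −0.14. Among those lower, UQCRQ was at 563, 609 and 642 CPM in siNeg and 439, 507 and 457 CPM in siCIN85 (log2FC −0.37 ± 0.08, adjusted P = 0.00412). NDUFA5 was the member called higher (0.35 ± 0.09). DESeq2 called 2 of these, and without pair 3 the calls numbered 1. None of 13 mitochondrially encoded genes of the list was called by edgeR or by DESeq2 with all 6 libraries, and in that edgeR fit none had an unadjusted P‐value below 0.05. The pair medians were 0.21, 0.32 and −0.52, and edgeR called 2, 1 and 3 members without pairs 1, 2 and 3, and 1 to 3 when any single library was left out. Of 82 cytoplasmic ribosomal protein genes, RPS18 (−0.40 ± 0.09) and RPS7 (−0.35 ± 0.10) were lower (2.44%, against 10.6% of all genes called). Sterol synthesis enzymes had 2 of 21 lower (9.52%, against 10.6% of all genes), among them IDI1 (−0.45 ± 0.12). HIF targets had 6 of 33 lower (18.2%, against 10.6% of all genes), with DDIT4 and 4 of the collagen enzymes among them. Targets of ATF4, the factor of the integrated stress response, had 5 of 36 higher and 1 lower (16.7%, against 10.6% of all genes), with DDIT3 at 13.2, 17.5 and 19.1 CPM in siNeg and 34.6, 19.0 and 33.3 CPM in siCIN85 (log2FC 0.79 ± 0.18, adjusted P = 0.00685), CHAC1 (0.63 ± 0.15), TRIB3 (0.54 ± 0.17) and ATF5 (0.43 ± 0.13) in overlapping or nearly overlapping groups. DESeq2 called no gene of the sterol, HIF and ATF4 lists. Osteoblast and mesenchymal markers had 4 of 14 lower, COL1A2, COL1A1, SPARC and S100A4 (−0.85 ± 0.17), and 1 higher, SPP1. The share called was 35.7%, against 10.6% of all genes, and the median was −0.16.

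The knockdown was then set against overexpression in the same line, with a fit of all 12 libraries, the block in the knockdown only, and a test of the difference between both effects. Knockdown values and P‐values below are those of the 6 siRNA libraries, and values of upCIN85 and of the difference those of the 12. Of 12542 genes, 368 differed (2.93%). This count was 122 without the block, 746 without a filter on low counts, 72 without siNeg 1, 70 without siCIN85 1, 105 without siNeg 3 or siCIN85 3, 158 without siNeg 2 and 155 without siCIN85 2. Of the 1248 genes called in the knockdown, 224 differed, 204 with effects of opposite sign and 20 with effects of the same sign. A test of the difference favours genes of opposite sign, so this split describes the selected genes only. In upCIN85 versus Mock 113 of the 1248 were called, 46 in the opposite direction and 67 in the same direction as in the knockdown. The share of all genes called in upCIN85 versus Mock is not given here, so these counts show neither an excess nor a lack. The SH3KBP1 transcript itself did not rise in upCIN85, at 76.6, 82.8 and 73.0 CPM in Mock and 71.0, 90.04 and 82.8 CPM in upCIN85 (0.07 ± 0.14, adjusted P = 0.856), in libraries that read the 3′ end, where a plasmid transcript may carry another end than the native gene. The study checked CIN85 protein in these pools by western blot and describes the full‐length form as overexpressed. This RNA value is therefore no measure of the overexpressed protein.

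Several genes that the study followed were among those selected for a difference between the effects. The study had picked HCLS1, PLPP2, DHRS2, ETS1, ESM1, ADAM19, ARHGDIB and PHLDA2 from these same libraries. It chose them as lower in upCIN85 and higher in siCIN85, so their opposite signs here are no independent result. HCLS1, an adaptor that binds cortical actin, was at 8.94, 8.50 and 7.499 CPM in siNeg and 21.8, 21.3 and 16.8 CPM in siCIN85 (log2FC 1.26 ± 0.19, adjusted P = 0.000108) and at 11.5, 15.1 and 11.6 CPM in Mock and 2.97, 5.72 and 0.850 CPM in upCIN85 (log2FC −1.98 ± 0.34, adjusted P = 0.00289), with an adjusted P of 0.000886 for the difference. PLPP2, a lipid phosphate phosphatase, was at 52.9, 46.4 and 28.7 CPM in siNeg and 109.7, 82.4 and 60.1 CPM in siCIN85 (log2FC 0.98 ± 0.11, adjusted P = 4.27e-06) and at 28.2, 27.2 and 34.2 CPM in Mock and 12.8, 16.99 and 13.3 CPM in upCIN85 (log2FC −1.05 ± 0.15, adjusted P = 0.000601), and the difference had an adjusted P of 3.45e-05. DHRS2, a short‐chain dehydrogenase, was at 19.6, 8.01 and 5.43 CPM in siNeg and 51.8, 19.2 and 29.1 CPM in siCIN85 (log2FC 1.62 ± 0.19, adjusted P = 5.97e-06), and its groups overlapped although each pair rose (1.38, 1.21 and 2.32). In upCIN85 versus Mock its log2FC was −1.53 ± 0.28, adjusted P = 0.00459. ETS1 (difference adjusted P = 0.000307), ESM1 (0.00321), the metalloproteinase ADAM19 (0.00171), the GDP‐dissociation inhibitor ARHGDIB (0.0137) and PHLDA2 (0.00256) were likewise higher after knockdown and lower in upCIN85. Levels in the knockdown were 64.3, 67.0 and 69.8 CPM in siNeg and 133, 104 and 99.7 CPM in siCIN85 for ADAM19 (log2FC 0.74 ± 0.11, adjusted P = 0.000162), 37.0, 36.9 and 38.0 CPM in siNeg and 57.4, 61.7 and 60.1 CPM in siCIN85 for ARHGDIB (log2FC 0.68 ± 0.11, adjusted P = 0.000377) and 306, 326 and 302 CPM in siNeg and 411, 406 and 419 CPM in siCIN85 for PHLDA2 (log2FC 0.40 ± 0.08, adjusted P = 0.00228). In ARHGDIB the upCIN85 effect alone missed the threshold (log2FC −0.68 ± 0.20, adjusted P = 0.0584), and upCIN85 2 (32.0 CPM) lay above Mock 1 (30.5 CPM). With 12 libraries the knockdown effect missed it for ARHGDIB (adjusted P = 0.0614) and PHLDA2 (adjusted P = 0.051).

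Collagen genes that fell after knockdown went both ways in upCIN85. COL1A2, which rose, was at 84.8, 44.8 and 41.9 CPM in Mock and 160.3, 62.9 and 213 CPM in upCIN85 (log2FC 1.35 ± 0.31, adjusted P = 0.0178, difference adjusted P = 0.00758), and COL3A1 at 154, 109.5 and 84.4 CPM in Mock and 259.8, 107 and 273 CPM in upCIN85 (log2FC 0.88 ± 0.25, adjusted P = 0.0515, difference adjusted P = 0.0013). For COL1A2, COL3A1, COL1A1 and LOXL1, the library upCIN85 2 lay within the Mock range, so only upCIN85 1 and 3 were above every Mock library. COL3A1 missed the threshold in the overexpression taken alone, and COL1A2 missed it for the knockdown in the fit of 12 libraries (adjusted P = 0.0684). COL1A1 (log2FC 0.56 ± 0.18, adjusted P = 0.087 in upCIN85) and COL5A1 (log2FC 0.14 ± 0.14, adjusted P = 0.672) were not called in upCIN85, while their effects differed (adjusted P = 0.0117 and 0.0115). COL8A1 (log2FC −0.79 ± 0.16, adjusted P = 0.00923 in upCIN85) and COL18A1 (log2FC −0.61 ± 0.14, adjusted P = 0.0178) fell in both experiments, with no call for the difference (adjusted P = 0.712 and 0.694). COL5A2 (log2FC −0.34 ± 0.14, adjusted P = 0.211) and COL16A1 (log2FC −0.36 ± 0.27, adjusted P = 0.535) had the same sign in both without a call in upCIN85. LOXL1 (difference adjusted P = 0.0188) and NRP2 (0.000886) also differed between the effects, and neither was called in upCIN85 (adjusted P = 0.239 and 0.0609). CLDN1 fell in both experiments (log2FC −1.51 ± 0.22, adjusted P = 0.000661 in upCIN85), and its effects were not shown to differ (difference adjusted P = 0.525). CXCL8 and CXCL1 were called lower in both, and fell far more in upCIN85 (log2FC −3.86 ± 0.27, adjusted P = 2.88e-07, and −3.21 ± 0.25, adjusted P = 6.29e-07), with adjusted P‐values of 2.32e-05 and 7.42e-05 for the difference. Their knockdown calls, in overlapping groups, were lost without the block (adjusted P = 0.47 and 0.34), with 12 libraries (0.123 and 0.171) and with DESeq2 (0.111 and 0.202). DLX2 (log2FC −0.25 ± 0.18, adjusted P = 0.407) was not called after knockdown, nor was its difference from overexpression (adjusted P = 0.303).

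**Figure D5:**
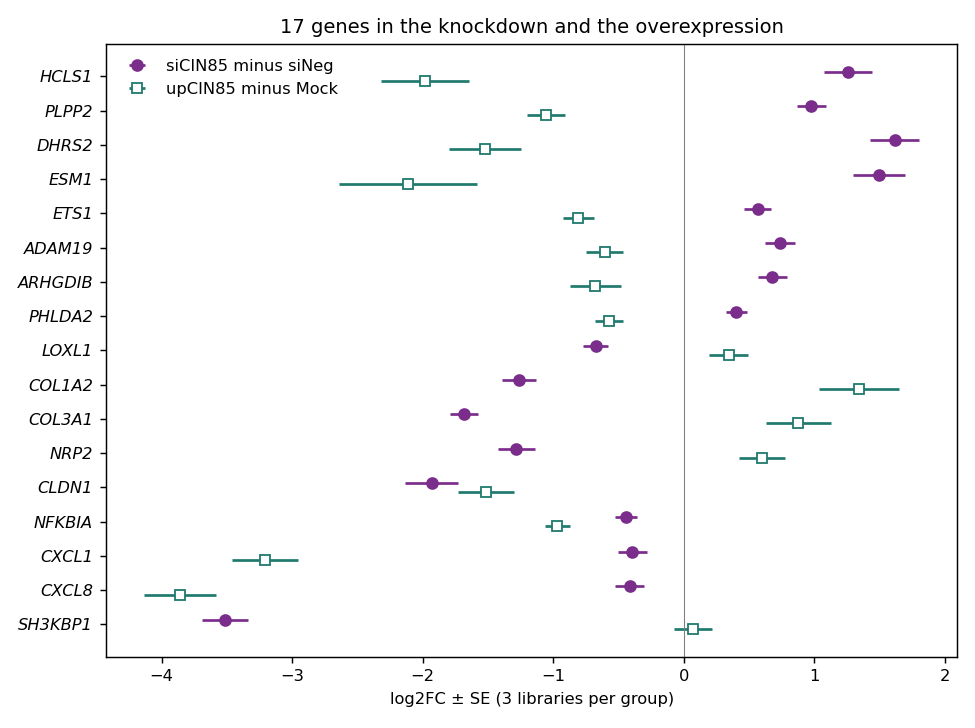
Log2FC with SE (edgeR, 3 libraries per group) of 17 genes after knockdown (filled circles) and in overexpression (open squares). The 8 genes from HCLS1 to PHLDA2 lie right of 0 after knockdown and left of 0 in upCIN85, the 4 from LOXL1 to NRP2 do the reverse, and CLDN1, NFKBIA, CXCL1 and CXCL8 lie left of 0 in both. The study had picked those 8 genes from these libraries for that pattern.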

How the data were processed

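RNA was measured in 12 HOS libraries prepared with a QuantSeq 3′ FWD kit, which reads transcript ends and marks molecules with identifiers (UMIs), and sequenced as 75‐base single reads. Per the labels' processing notes the authors used FastQC, cutadapt 4.3, STAR 2.7.3a, Picard 2.25.6, MultiQC 1.10.1 and featureCounts of Subread 2.0 on GRCh38, and deposited unnormalized read counts for 25141 Ensembl genes. The annotation release and any collapsing of UMIs were not given in the sources used here. If UMIs were not collapsed, counts include PCR copies, and counting intervals understate the error. Symbols and positions come from GENCODE 29, in which 95 identifiers were not found.

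Here the 6 siRNA libraries were fitted in R 4.3.3 with edgeR 4.0.16: filterByExpr by group (minimum count 10, minimum total 15), TMM, and the quasi‐likelihood test with replicate number and group as terms. P‐values are two‐sided and Benjamini‐Hochberg adjusted over all 11806 genes, with a threshold of 0.05. SEs were obtained as |log2FC| over the root of the F statistic. CPM are TMM‐normalized, and log2 ratios of pairs carry a prior count of 2. The pairing comes from shared replicate numbers in the labels, and every pair's correlation was above 0.1. Chi‐square over degrees of freedom between replicates was 4.89 to 9.99, so no 2 libraries were alike within counting noise.

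Genes were named by a rule: SH3KBP1, the 8 highest and 8 lowest log2FC among called genes without overlap, the 6 highest and 6 lowest of these at 100 CPM or more, up to 4 called members per direction of each list (or the 2 of smallest P), genes the study followed, and the 5 called genes of smallest P for the difference from overexpression. Further list members are given with their log2FC only. Some members that enter the counts of their lists are not reported by name here. The members and lists were chosen with earlier results of these data known. Of the listed entries, 21 were not in the table. Scripts were tested on simulated counts. Alternatives were no block, 12 libraries with and without the block, RLE, no filter, 10 counts in every library, robust moderation, DESeq2 1.42.0 with the block, thinned counts, each library or pair left out and, added after the data were seen, bias‐adjusted deviances and removal of the GC trend. Protein, qPCR and migration data were not analysed here.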

Additional observations from a re-analysis of the deposited data

How the results depend on the processing

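The SH3KBP1 change kept its direction and call under every alternative run, with a log2FC of −3.79 to −3.17 when single libraries were left out. Without the replicate block 50 genes were called and 46 at an absolute log2FC above 0.59, with bias‐adjusted deviances and no block 51 and 48, with all 12 libraries and the replicate block in siNeg and siCIN85 429 and 299, with all 12 and no block 131 and 105, and with DESeq2 and the block 295 and 181. Left‐out libraries gave 698 to 1501 calls and 320 to 712 above the fold threshold, and left‐out pairs 727 (pair 1), 1426 (pair 2) and 701 (pair 3) calls, with 319 above the fold threshold without pair 1. The other counts (RLE 1275, no filter 1459, 10 counts in every library 1278, robust moderation 1217, thinned libraries 1268, bias‐adjusted deviances with the block 1291, GC trend removed 1435) were within 1.5 times the main one. The difference from overexpression was called for 122 genes without the block, 746 without a filter and 70 to 158 with 1 library left out. The cause of these shifts was not tested.

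Medians of some lists moved by more than the spread between pairs. Without single libraries they spanned 0.4797 to 0.6603 for ERK feedback genes, −0.0267 to 0.0784 for metalloproteinases and TIMPs, −0.2176 to −0.1462 for SRF and YAP targets, 0.0628 to 0.3533 for PPAR targets, −0.3074 to −0.1951 for NF‐kB targets, 0.0413 to 0.111 for CDK inhibitors and D cyclins and 0.2041 to 0.579 for histone genes. Without pair 1 the medians were −0.0643 (metalloproteinases), 0.3537 (PPAR) and −0.1948 (NF‐kB), without pair 2 0.205 (histones), and without pair 3 0.4528 (ERK feedback), −0.0633 (metalloproteinases), −0.1461 (SRF and YAP), 0.0428 (CDK inhibitors) and 0.2577 (histones). With 10 counts in every library they were −0.0603 (metalloproteinases), 0.0205 (PPAR) and 0.7022 (histones), and with thinned libraries −0.0652 (metalloproteinases), −0.1644 (basement membrane), −0.096 (markers of other cell types) and 0.667 (histones). With the GC trend removed they were 0.0081 (metalloproteinases), −0.1416 (SRF and YAP) and −0.0967 (markers of other cell types). The metalloproteinase list thus has no stable sign.

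Reversals were seen in 4 genes, none of them called. CDH1 had a log2FC of 0.0559 with thinned libraries, 0.0157 with the GC trend removed, 0.1076 without pair 3 and −0.1073 to 0.1076 without single libraries. MT‐ND6 was at −0.0219 without pair 2 and spanned −0.0228 to 0.4919, MT‐CYB was at 0.0446 without pair 3 and spanned −0.3907 to 0.0446, and DLX2 was at 0.1722 without pair 1 and spanned −0.4976 to 0.1718. Depth limits genes under about 10 counts per library, where 1 read more or less moves a ratio visibly.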

Other observations

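Further genes with large and well‐counted changes were picked after their values were seen, and none has a place in the lists above. HMGA2, an architectural chromatin protein of tumour cells, was at 10.7, 6.55 and 40.9 CPM in siNeg and 58.1, 35.6 and 103 CPM in siCIN85 (log2FC 1.88 ± 0.17, adjusted P = 3.64e-07), with siNeg 3 above siCIN85 2. PLAUR, the urokinase receptor at the cell surface, was at 43.4, 23.3 and 36.7 CPM in siNeg and 129, 50.8 and 87.1 CPM in siCIN85 (log2FC 1.34 ± 0.12, adjusted P = 2.1e-07), and the neurosecretory protein VGF at 15.9, 7.28 and 17.8 CPM in siNeg and 40.7, 27.9 and 59.3 CPM in siCIN85 (log2FC 1.64 ± 0.15, adjusted P = 4.95e-07). G0S2, an inhibitor of triglyceride lipase, was at 21.6, 16.8 and 22.2 CPM in siNeg and 63.2, 41.9 and 50.4 CPM in siCIN85 (log2FC 1.36 ± 0.13, adjusted P = 8.57e-07), and the serpin SERPINB7 at 9.68, 6.07 and 13.96 CPM in siNeg and 33.4, 33.0 and 29.9 CPM in siCIN85 (log2FC 1.71 ± 0.20, adjusted P = 5.82e-06). STX3, a syntaxin of membrane fusion, was at 25.8, 23.8 and 34.1 CPM in siNeg and 62.9, 51.7 and 75.3 CPM in siCIN85 (log2FC 1.18 ± 0.12, adjusted P = 9.65e-07). Among the genes that fell, the tubulin TUBA1A was at 129, 151 and 81.2 CPM in siNeg and 61.5, 72.7 and 44.9 CPM in siCIN85 (log2FC -0.998 ± 0.10, adjusted P = 1.88e-06), the factor CEBPD at 61.1, 65.3 and 41.1 CPM in siNeg and 26.6, 26.7 and 29.7 CPM in siCIN85 (log2FC -0.997 ± 0.14, adjusted P = 7.03e-05), the lysosomal lipase LIPA at 106, 99.5 and 86.4 CPM in siNeg and 45.3, 65.8 and 46.2 CPM in siCIN85 (log2FC −0.91 ± 0.12, adjusted P = 2.25e-05) and NAA38 at 94.6, 98.5 and 102 CPM in siNeg and 29.3, 52.8 and 45.1 CPM in siCIN85 (log2FC −1.24 ± 0.13, adjusted P = 1.26e-06). Except for HMGA2, the groups did not overlap in these genes.

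On chromosome 19, 39 genes were called higher and 8 lower of 718 tested, the most uneven split of any chromosome with more than 20 calls, and its part in the GC trend was not tested. MTND4P12, a pseudogene with a near copy in the mitochondrial genome, was at 2.98, 2.18 and 665 CPM in siNeg and 1.45, 75.8 and 2.10 CPM in siCIN85 and was not called (log2FC −1.78 ± 1.24, adjusted P = 0.387).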
